A study of Homo sapiens with 6 samples.

Results

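Claudins and simple epithelial keratins were followed at the transcript level as human embryonic stem cells (hESCs) became neuromesodermal progenitor-like (NMP-L) cells. The genes were taken by symbol from the deposited expression table and comprise CLDN1, CLDN3, CLDN4, CLDN6, CLDN7, CLDN10 and CLDN12 together with KRT8, KRT18 and KRT19. They are 10 of the 27672 genes listed there, 7 claudins and 3 keratins, and all 10 passed the filter on low counts. The study asks how chromatin at neural genes is regulated as NMP-L cells enter neural differentiation, and these libraries compare the NMP-L state with the stem cells from which it was made. All 6 libraries came from H9, a single established hESC line, and no other line was measured. The hESC group (3 biological replicates, day 0) was untreated and grown on fibronectin in DEF medium with bFGF at 30 ng/ml and Noggin, a BMP antagonist, at 10 ng/ml. The NMP-L group (3 biological replicates, day 3) had spent 3 days in N2/B27 basal medium with bFGF at 20 ng/ml and CHIR99021, a GSK3 inhibitor that activates Wnt signalling, at 3 µM. The labels and the methods of the paper differ for both groups, since the methods give TESR medium on Geltrex for hESCs and add Noggin and the TGFβ receptor inhibitor SB431542 during NMP-L differentiation. The medium changed together with the agents, so their shares in a difference cannot be told apart.

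Claudins are membrane proteins whose extracellular loops meet those of neighbouring cells to form the strands of tight junctions. The mix of claudins sets which ions and solutes pass between the cells of an epithelium. Keratins form heteropolymers of a type II member (KRT8 here) with a type I member (KRT18 or KRT19), and these filaments are anchored at desmosomes and give simple epithelia their mechanical strength. Both families are used as hallmarks of epithelial cells, and hESCs and the epiblast are epithelial sheets.

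Polyadenylated RNA had been sequenced as single-end reads of 76 bases. Library totals lay between 19454543 and 23036426 expected counts (reads assigned to a gene by RSEM, which splits reads that match several genes), so that 3 counts, taken as the detection floor, equalled 0.130 to 0.154 CPM of these totals. All other CPM values are counts scaled to a common library size with TMM factors, which lay between 0.963 and 1.039. The labelled cell states were checked against marker genes. Of 8 pluripotency markers, 6 were lower in NMP-L cells and 0 higher, among them NANOG (93.8 to 15.5 CPM). Of 7 testable markers of neuromesodermal progenitors, 6 were higher, including SP5 (0.296 to 55.9 CPM) and CDX2 (0.0171 to 21.5 CPM). SOX2 did not pass (log2 fold change 0.06, edgeR adjusted p = 0.53). FGF8, on the same list but too low to test, went the other way (0.382 to 0.0906 CPM). In bulk RNA, fewer cells of a type and less RNA per cell cannot be told apart.

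Several claudins share coding sequence, which bears on how their reads were divided. CLDN3 and CLDN4 are neighbours on chromosome 7 of GRCh37 (CLDN3 from 73183327 to 73184600 on the minus strand, CLDN4 from 73213872 to 73247020 on the plus strand), with 29271 bases and 0 annotated genes between these extents. The CLDN4 start site used for its promoter window further on lies well inside its extent, just after position 73245325, and thus farther from CLDN3. CLDN6 (chromosome 16, 3064713 to 3070072, minus strand) lies 206 bases from CLDN9. The following stretch of 102 coding bases, within 1 exon of each gene, contains the longest run of identical sequence between CLDN3 and CLDN4 (71 bases). It is shown 5′ to 3′ on the strand of the gene, with capitals marking bases that differ from CLDN4.
CLDN4, chr7:73245652-73245753, plus strand: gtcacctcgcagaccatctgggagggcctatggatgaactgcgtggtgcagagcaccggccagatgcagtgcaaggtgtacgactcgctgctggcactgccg
CLDN3, chr7:73184161-73184262, minus strand: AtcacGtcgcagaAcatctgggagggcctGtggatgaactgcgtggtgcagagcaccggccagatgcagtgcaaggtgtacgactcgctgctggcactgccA
CLDN6, chr16:3065801-3065902, minus strand: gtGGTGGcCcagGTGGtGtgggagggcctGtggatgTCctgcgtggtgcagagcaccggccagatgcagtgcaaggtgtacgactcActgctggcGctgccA
CLDN9, chr16:3063484-3063585, plus strand: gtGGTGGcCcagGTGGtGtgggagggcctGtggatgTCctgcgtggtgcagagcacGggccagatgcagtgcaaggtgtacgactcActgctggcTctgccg
CLDN3 differed from CLDN4 at 5 of the 102 bases, and CLDN6 and CLDN9 each differed from it at 17. No run reached the read length of 76 bases. Allowing 2 mismatches, 48 of the 1199 windows of 76 bases in the CLDN3 transcript (4%) matched CLDN4, and 71 of the 1291 windows of CLDN6 (5.5%) matched CLDN9. Fractional expected counts, the sign of a read shared between genes, occurred among the 10 genes only for CLDN3 and CLDN4 in hESC replicate 1 and for CLDN3, CLDN4 and CLDN6 in NMP-L replicate 1, and in each of these libraries the fractions summed to 1 read. All other expected counts of the 10 genes were whole numbers.

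Between hESCs and NMP-L (D3) cells, 8 of the 10 genes were higher (CLDN1, CLDN3, CLDN4, CLDN7, CLDN12, KRT8, KRT18 and KRT19), CLDN6 was lower and CLDN10 did not pass the threshold, an adjusted p of 0.05 in edgeR's quasi-likelihood test over all 15517 genes tested. Across all genes tested, 55.8% passed in either direction, 29.1% were higher and 26.7% lower. The median log2 fold change of the 10 genes was 0.46, and that of all genes tested was 0.03. Most of the rises were small: CLDN4 alone changed by at least 2-fold, against 9.38% of all genes that rose by as much. Libraries of both groups did not overlap for 9 of the 10 genes, 7 with NMP-L above and 2 below, whereas 61.6% of all genes showed no overlap, 32.1% with NMP-L above and 29.5% below. For each of those 9 genes the two-sided exact permutation test over libraries gave p = 0.1, the smallest value that 3 against 3 allows. The count of risen genes depends on the scaling between libraries, with 1 of the 10 (CLDN4) past the threshold in the upward direction when counts were taken relative to HPRT1 counts and all 10 when taken relative to GAPDH counts.

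**Figure D1:**
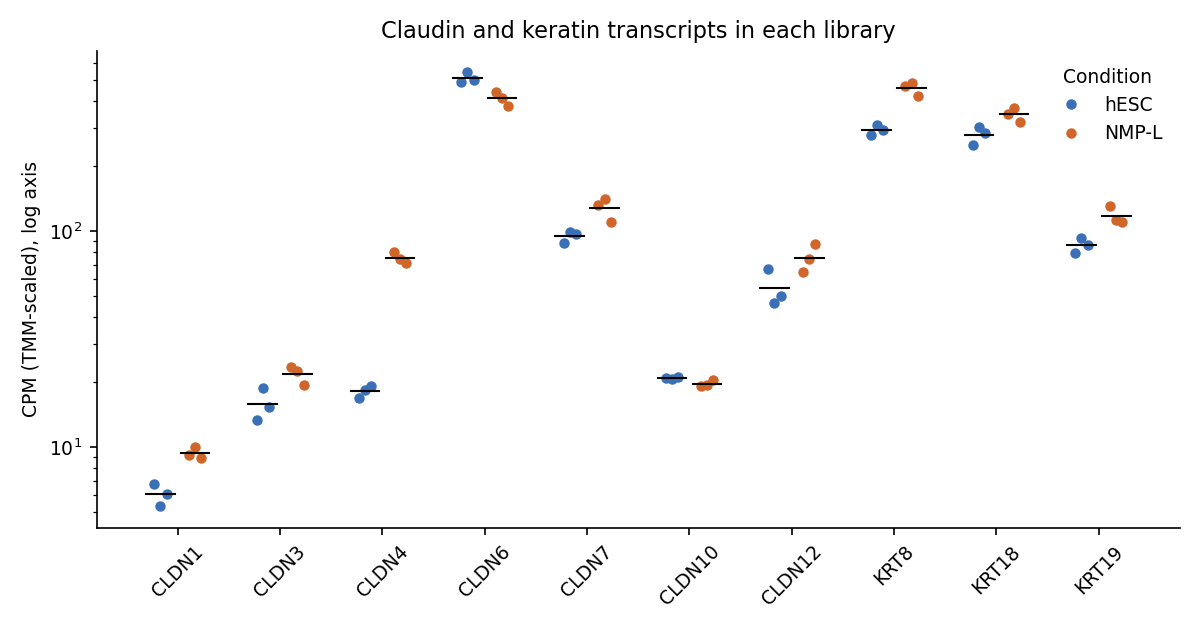
CPM (log axis) of each gene in the 3 hESC libraries (blue) and the 3 NMP-L libraries (orange), with bars at the group means. CLDN4 shows the widest separation (18.1 against 75.1 CPM), CLDN6 is the most abundant on this scale in hESCs (512 CPM), and the libraries of CLDN12 overlap.

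CLDN4 showed the largest change of the 10 genes. It encodes a barrier-forming claudin of many simple epithelia and is, with CLDN3, a receptor for the enterotoxin of Clostridium perfringens. Its level was 16.8, 18.4 and 19.2 CPM in the hESC libraries and 80.4, 74.0 and 71.0 CPM in the NMP-L libraries. Each NMP-L library was thus far above each hESC library. The mean rose from 18.1 ± 1.19 to 75.1 ± 4.83 CPM (SD, n = 3 each), a 4.14-fold difference (log2 fold change 2.05, standard error 0.10, edgeR quasi-likelihood adjusted p = 1.84e-08). Its neighbour CLDN3 moved much less. CLDN3 was measured at 13.3, 18.7 and 15.4 CPM in hESCs against 23.6, 22.6 and 19.3 CPM in NMP-L cells, where the highest hESC library nearly met the lowest NMP-L library. The means were 15.8 ± 2.74 and 21.8 ± 2.24 CPM (log2 fold change 0.46, standard error 0.14, adjusted p = 0.0137 by the same test). The 95% interval of the log2 fold change ran from 0.16 to 0.77 for CLDN3 and from 1.84 to 2.27 for CLDN4. The call for CLDN3 rests on single libraries, with an edgeR adjusted p of 0.0555 without hESC replicate 1 (log2 fold change 0.33) and 0.0678 without hESC replicate 3 (0.43). After correcting each library for GC content and length, the log2 fold change was larger, at 0.81 (edgeR adjusted p = 3.96e-06).

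The start regions of these neighbours differ in letters. Promoter windows in the RefSeq table (GRCh38.p14, 250 bases before to 50 after a start site) were available for 8 of the 10 genes, without KRT18 and KRT19, and each was placed on GRCh37 by its exact sequence. CLDN7 and CLDN10 had 2 windows each. The AP-1 motif TGANTCA, searched on both strands, matched only in the CLDN4 window among these, at positions -242 and -161 from the start site, and 7.71% of 35116 windows of the same length hold a match. The matches are shown with 8 bases on either side, in capitals, because CLDN4 is the gene with the largest rise.
CLDN4, chr7:73245076-73245098, plus strand: ctgggctgTGATTCAgtgtctgt
CLDN4, chr7:73245157-73245179, plus strand: ctggatagTGACTCAgggacccg
Upstream of CLDN3, the same search found the GC box GGGCGG (4 matches in the 250 bases before the start site, on either strand, against 1 in the CLDN4 window at position -47, and held by 45% of all windows) and the AP-2 motif GCCNNNGGC (23.2% of all windows). The 250 bases before its start site are given for contrast, read on the strand of the gene, with these matches in capitals.
CLDN3, chr7:73184601-73184850, minus strand: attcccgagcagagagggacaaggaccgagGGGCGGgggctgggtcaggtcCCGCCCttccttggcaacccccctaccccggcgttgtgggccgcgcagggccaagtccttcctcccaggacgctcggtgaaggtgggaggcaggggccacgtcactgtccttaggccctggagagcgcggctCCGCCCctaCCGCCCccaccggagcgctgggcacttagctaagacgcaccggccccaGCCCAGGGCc
This stretch has 71.6% G and C and 19 CpG pairs, against 58.8% and 4 in the 250 bases before the CLDN4 start site, all of which lie in an annotated exon. The SNAI/ZEB E-box CACCTG matched 5 times in a CLDN7 window and once each in those of CLDN3 and CLDN6 (20.6% of all windows hold a match). The TCF/LEF core CTTTGAT (2.62%), the Grainyhead-like motif AACCNGTT (1.73%) and the TATA box TATAAA (11.5%) had 0 matches in any window of the 8 genes. These are matches of letters only, and binding at them was not measured here. Which start sites the cells used, including that of KRT8, was not measured either.

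CLDN6, the claudin best known from pluripotent cells and embryonic epithelia, was the only one of the 10 genes called lower at the threshold given above. Its level was 491, 543 and 503 CPM in hESCs against 443, 416 and 378 CPM in NMP-L cells, with every NMP-L library below every hESC library. The mean fell from 512 ± 27.5 to 412 ± 32.2 CPM (0.805-fold, log2 fold change -0.31, standard error 0.08, edgeR quasi-likelihood adjusted p = 0.0056), a direction that turned to a rise of 0.24 (adjusted p = 0.024) relative to GAPDH counts. CLDN9, which shares the printed stretch with CLDN6, is a minor transcript with 13, 28 and 28 counts in hESCs and 54, 42 and 45 in NMP-L cells (log2 fold change 0.80, edgeR adjusted p = 0.0318). Exact copies of 45 of the 1291 windows of 76 bases of the CLDN6 transcript (3.49%) lie at 1 other locus of GRCh37, so that reads from those windows have more than 1 exact match.

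CLDN7, which binds EPCAM at the basolateral membrane (chromosome 17, 7163222 to 7167302, minus strand), was at 87.7, 99.4 and 96.6 CPM in hESCs against 132, 141 and 111 CPM in NMP-L cells. All NMP-L libraries were higher, the means being 94.6 ± 6.08 and 128 ± 15.5 CPM (log2 fold change 0.43, standard error 0.10, edgeR quasi-likelihood adjusted p = 0.0032). CLDN1, a barrier-forming claudin needed in the epidermis (chromosome 3, 190023496 to 190040235, minus strand), was the lowest of the 7 claudins. It rose from 6.78, 5.35 and 6.06 CPM to 9.25, 10.1 and 8.90 CPM without overlap (log2 fold change 0.63, standard error 0.13, edgeR adjusted p = 0.0018). CLDN12 (chromosome 7, 90013035 to 90142716, plus strand) lacks the PDZ-binding tail by which most claudins hold on to ZO proteins. Its libraries overlapped, at 67.0, 46.5 and 50.02 CPM in hESCs against 65.0, 74.6 and 87.0 CPM in NMP-L cells, where hESC replicate 1 exceeded NMP-L replicate 1. Its log2 fold change of 0.47 (standard error 0.14) passed the threshold in edgeR's quasi-likelihood test (adjusted p = 0.0147), with an exact permutation p of 0.2. That call was lost when hESC replicate 2 (log2 fold change 0.37, edgeR adjusted p = 0.069), hESC replicate 3 (0.41, adjusted p = 0.083) or NMP-L replicate 3 (0.36, adjusted p = 0.068) was left out. With the GC and length correction the log2 fold change was 0.28 (edgeR adjusted p = 0.0012).

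CLDN10, whose isoforms form ion-selective pores (chromosome 13, 96085858 to 96232013, plus strand), was close to level. It was measured at 21.0, 20.7 and 21.1 CPM in hESCs against 19.2, 19.4 and 20.4 CPM in NMP-L cells. All NMP-L libraries were slightly below all hESC libraries, yet the log2 fold change of -0.09 did not pass (standard error 0.10, edgeR adjusted p = 0.44), and its 95% interval from -0.30 to 0.12 leaves out a change of 2-fold. The sign was positive relative to GAPDH counts (0.47, adjusted p = 0.0088) and on the TPM scale (0.0043, limma). With a correction for GC content and transcript length it was called lower (-0.25, edgeR adjusted p = 0.0165). Its exons overlap those of DZIP1 on the other strand by 1558 bases, and whether counting used the strand is not given in the sources used here. DZIP1, followed after the data were seen, was at 27.9 ± 2.20 CPM in hESCs against 29.4 ± 2.06 CPM in NMP-L cells (log2 fold change 0.08, edgeR adjusted p = 0.54).

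Levels of different genes were set side by side in TPM, which is scaled by transcript length. In hESCs, CLDN6 stood highest at 800 ± 27.1 TPM, followed by CLDN7 at 132 ± 6.90 TPM (SD, n = 3). CLDN12 (30.8 ± 6.74 TPM) and CLDN3 (26.6 ± 4.10 TPM) came next and overlapped, then CLDN4 (20.8 ± 1.21 TPM), CLDN10 (17.4 ± 0.482 TPM) and CLDN1 (3.60 ± 0.495 TPM), each apart from its neighbour. The order in NMP-L cells differed at a single gene. CLDN4 stood in the third place rather than the fifth, at 92.0 ± 4.15 TPM, behind CLDN6 (688 ± 34.1 TPM) and CLDN7 (190 ± 15.9 TPM) and ahead of CLDN12 (45.7 ± 8.24 TPM) and CLDN3 (39.4 ± 2.80 TPM), which again overlapped.

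The summed claudin TPM overlapped between the groups, whereas the shares of most claudins in it did not. The 7 claudins summed to 1007, 1066 and 1020 TPM in hESCs compared with 1117, 1080 and 1038 TPM in NMP-L cells (two-sided exact permutation test, p = 0.2). CLDN6 held 77.5%, 78.0% and 77.4% of this sum in hESCs and 64.9%, 62.9% and 63.4% in NMP-L cells. CLDN4 went from 1.95%, 1.94% and 2.16% to 8.66%, 8.22% and 8.73%, and the ratio of CLDN6 to CLDN4 TPM from 38.6 ± 2.45 to 7.47 ± 0.198. That ratio was not planned beforehand, and it pairs the only claudin called lower with the one that rose most. Shares of CLDN7 (12.8% to 17.6%), CLDN3 (2.58% to 3.65%) and CLDN1 (0.350% to 0.553%) were also higher in every NMP-L library. For these 5 claudins the exact permutation p was 0.1, and the shares of CLDN12 (3.00% to 4.26%, p = 0.2) and CLDN10 (1.69% to 1.63%, p = 0.7) overlapped. In shares of summed CPM in place of TPM, the differences were 0.43 percentage points for CLDN1 (0.20 in TPM), 2.68 for CLDN12 (1.26) and -0.24 for CLDN10 (-0.07). Those of CLDN4 and CLDN6 were also larger in size, at 7.62 (6.52 in TPM) and -15.4 (-13.9). The difference for CLDN12 was 0.76 in TPM without NMP-L replicate 3. A share of a sum within a library does not depend on the scaling between libraries. The 7 genes held 97.4% of the TPM of all listed claudins in hESCs and 97.5% in NMP-L cells.

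**Figure D2:**
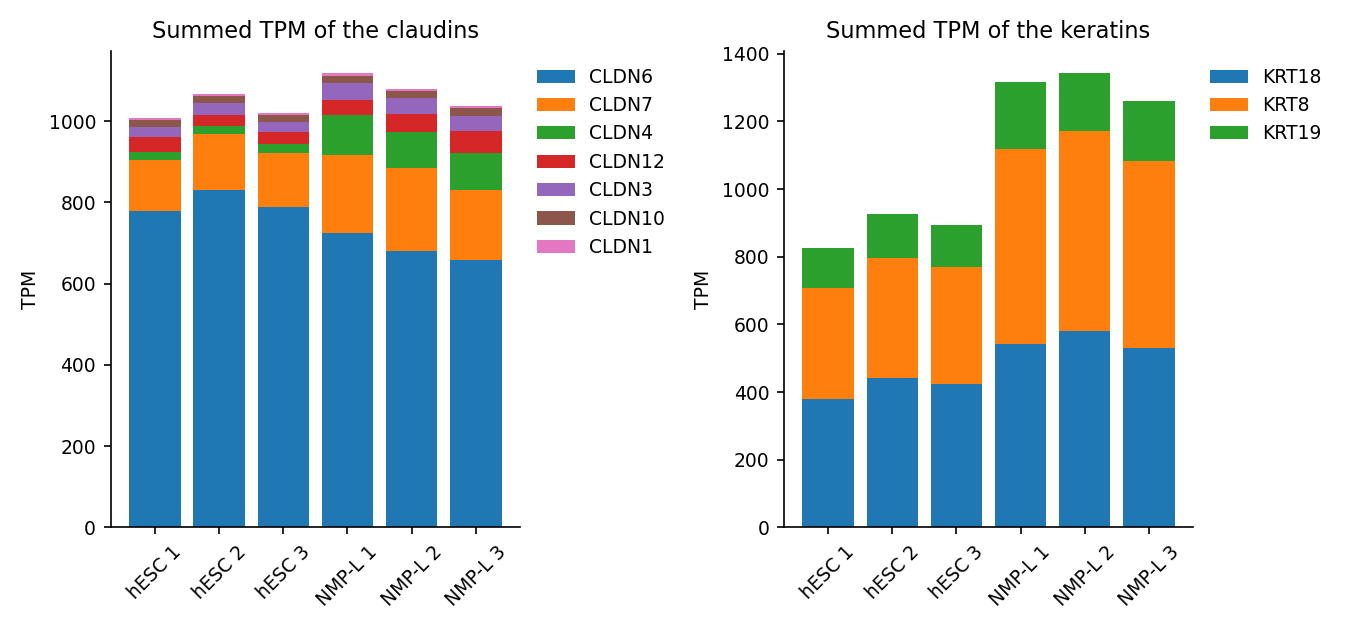
Stacked TPM of the 7 claudins (left) and the 3 keratins (right) in each of the 6 libraries. The claudin bars stay between 1007 and 1117 TPM while the CLDN6 segment shrinks and the CLDN4 segment widens, and the keratin bars lie between 825 and 928 TPM in hESCs and between 1260 and 1342 TPM in NMP-L cells.

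All 3 keratins were higher in NMP-L cells, with the sign kept under every scaling tried and the calls lost relative to HPRT1 counts. KRT8, the type II partner (chromosome 12, 53290971 to 53343738, minus strand), was at 278, 311 and 294 CPM in hESCs against 470, 484 and 424 CPM in NMP-L cells. Every NMP-L library was above every hESC library, and the mean went from 294 ± 16.5 to 459 ± 31.5 CPM (1.56-fold, log2 fold change 0.64, standard error 0.08, edgeR quasi-likelihood adjusted p = 3.43e-05). KRT18, its usual type I partner, has its gene head to head with KRT8 on the plus strand (53342655 to 53346690), and the annotated extents overlap (a gap of -1084 bases). The KRT8 start site used for the promoter windows lies outside this overlap, next to position 53320254. KRT18 rose from 251, 304 and 285 CPM to 348, 373 and 321 CPM, again without overlap but with a narrow gap. Its log2 fold change was 0.31 (standard error 0.09, edgeR adjusted p = 0.0113), and without NMP-L replicate 2 it was 0.26 (adjusted p = 0.057). KRT19, a small type I keratin without a tail domain on chromosome 17 (39679869 to 39684560, minus strand), rose from 79.3, 92.6 and 86.2 CPM to 131, 113 and 111 CPM, with all NMP-L libraries higher (log2 fold change 0.46, standard error 0.09, edgeR adjusted p = 0.0015).

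Summed keratin TPM was 825, 928 and 895 in hESCs and 1316, 1342 and 1260 in NMP-L cells, without overlap (882 ± 52.6 against 1306 ± 41.6 TPM, exact permutation p = 0.1). The ratio of KRT8 to KRT18 TPM was 0.872, 0.805 and 0.812 in hESCs and 1.06, 1.02 and 1.04 in NMP-L cells, so that KRT18 led in every hESC library and KRT8 in every NMP-L library (exact permutation p = 0.1). Against KRT18 and KRT19 combined, a comparison chosen after the values were seen, the ratio went from 0.638 ± 0.0249 to 0.779 ± 0.0051. KRT8 made up 38.9% of the keratin TPM in hESCs and 43.8% in NMP-L cells, KRT18 47.0% and 42.2%, and KRT19 14.1% and 13.99%. KRT8 and KRT18 have many processed copies in the genome, with 372 of 1709 windows of 76 bases in the KRT8 transcript (21.8%) and 85 of 1338 in that of KRT18 (6.35%) found elsewhere in GRCh37. For KRT19 there were 0 such windows of 1315. The expression table lists 1 named pseudogene of each of these keratins, and none of them exceeded 2 counts in a library. How reads from the copies were assigned is not given in the sources used here, and their part in the KRT8 and KRT18 values was not tested.

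Size and, for some genes, sign depended on what the libraries were scaled to. Relative to GAPDH counts the median of all genes shifted by 0.56 on the log2 scale, and relative to HPRT1 counts by -0.30. GAPDH itself differed between the groups under TMM (log2 fold change -0.55, edgeR adjusted p = 1.44e-04), and HPRT1 did not pass (0.28, adjusted p = 0.069). Relative to HPRT1 counts the log2 fold change of CLDN4 was 1.75 and stayed past the threshold, while those of KRT8 (0.34), CLDN1 (0.34), CLDN12 (0.18), CLDN3 (0.16), KRT19 (0.16), CLDN7 (0.13) and KRT18 (0.0042) kept their sign but not the call. The standard errors of these genes were also wider under that scaling, as for KRT8 (0.19 against 0.08 under TMM). CLDN6 was lower relative to HPRT1 counts too (-0.61, edgeR adjusted p = 0.0051).

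**Figure D3:**
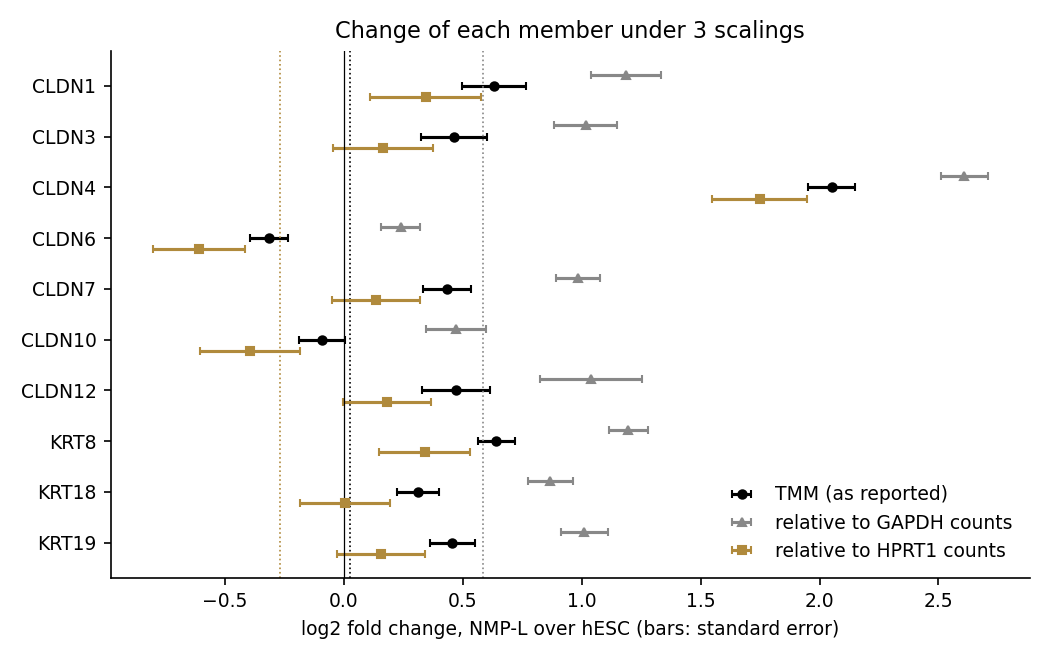
Log2 fold change of each gene (NMP-L over hESC, bars: standard error) under TMM scaling (black), relative to GAPDH counts (grey) and relative to HPRT1 counts (brown), with dotted lines at the median of all genes tested under each. CLDN4 lies far above the median under every scaling (1.75 to 2.61), and CLDN6 changes sign between TMM (-0.31) and GAPDH (0.24).

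Genes of related functions were read in 7 lists, whose union had 92 tested genes with 30 higher and 32 lower (54 and 12 relative to GAPDH counts, 16 and 39 relative to HPRT1 counts). Of 20 further claudin and claudin-like genes, 7 could be tested and 11 never exceeded 3 counts in any library. CLDN23 (3.93 to 9.63 CPM), CLDN9 and CLDND1 (49.6 to 60.0 CPM) were higher, a count that dropped to 1 without NMP-L replicate 1 or without NMP-L replicate 2. CLDN11, a claudin of myelin and Sertoli cells (7.38 to 0.974 CPM), CLDN5, the endothelial claudin (0.824 to 0.0756 CPM), and CLDN19 (17.6 to 13.5 CPM) were lower, with edgeR adjusted p-values of 2.9e-07, 6.9e-04 and 0.0086. The median log2 fold change of the 7 was -0.09.

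Other membrane proteins of tight junctions moved both ways, with 6 of 14 tested genes higher, 4 lower and a median of 0.02 (8 higher and 1 lower relative to GAPDH counts, 3 and 5 relative to HPRT1 counts). OCLN, which encodes occludin, was at 68.0, 50.01 and 52.7 CPM in hESCs against 95.8, 113 and 114 CPM in NMP-L cells. It thus rose without overlap (log2 fold change 0.92, standard error 0.12, edgeR adjusted p = 6.0e-05). JAM2, a junctional adhesion molecule, fell from 11.1 ± 2.24 to 3.25 ± 0.105 CPM (log2 fold change -1.77, edgeR adjusted p = 4.9e-06), and MARVELD3, F11R and CRB3 were lower by smaller amounts (log2 fold changes of -0.34, -0.20 and -0.39). The number lower was 2 without hESC replicate 3 or NMP-L replicate 1, 1 without NMP-L replicate 3, and 2 with replicate number as a block. Among 23 scaffold and polarity proteins, 6 were higher and 9 lower (median -0.24), with 12 higher and 3 lower when scaled to GAPDH counts. Of the ZO proteins that link claudins to actin, TJP1 did not pass (286 ± 29.9 and 321 ± 25.3 CPM, log2 fold change 0.17, edgeR adjusted p = 0.14). TJP3 fell from 67.8 ± 5.35 to 34.8 ± 2.37 CPM (log2 fold change -0.96, edgeR adjusted p = 6.7e-06). AMOT, the angiomotin scaffold, rose from 17.5 ± 1.81 to 80.8 ± 2.87 CPM (log2 fold change 2.21), while MAGI2 (44.8 ± 2.42 to 11 ± 0.768 CPM) and CGNL1, paracingulin (304 to 111 CPM), fell by 2.03 and 1.46 on the log2 scale.

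Of 27 further keratin genes, 20 never exceeded 3 counts in any library, among them the basal epidermal keratins KRT5 and KRT14. KRT7, another type II keratin of simple epithelia, was at 4.91, 4.94 and 5.43 CPM in hESCs against 13.9, 10.9 and 11.03 CPM in NMP-L cells, a clear separation at low level (log2 fold change 1.23, standard error 0.14, edgeR adjusted p = 1.9e-05). KRT10, the only other one tested, did not pass (8.75 and 9.38 CPM, adjusted p = 0.48). The number of these keratins called higher was 2 when hESC replicate 1, 2 or 3 or NMP-L replicate 3 was left out. The filter on low counts was applied anew in those fits and can admit keratins not tested with all libraries. The second gene need not be KRT10, and its name is not reported here.

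Desmosomal genes, whose products anchor keratin filaments, had 6 of 16 higher, 6 lower and a median log2 fold change of 0.17. The numbers higher and lower were 10 and 3 relative to GAPDH counts, 4 and 6 relative to HPRT1 counts, and 9 and 6 without hESC replicate 1. DSP, the desmoplakin that binds keratins directly, was at 209, 198 and 201 CPM in hESCs against 693, 695 and 708 CPM in NMP-L cells. It rose 3.45-fold with little spread (log2 fold change 1.79, standard error 0.07, edgeR adjusted p = 3.5e-09). JUP, plakoglobin, rose from 65.9 ± 6.53 to 108 ± 10.9 CPM (log2 fold change 0.72) and TCHP, trichoplein, from 5.88 ± 0.411 to 24.4 ± 1.49 CPM (log2 fold change 2.05). PKP2, plakophilin 2, fell from 61.8 ± 9.20 to 26.9 ± 2.23 CPM (log2 fold change -1.20, edgeR adjusted p = 7.2e-06), and the cadherin DSG2 did not pass (356 ± 66.6 and 392 ± 25.7 CPM, adjusted p = 0.33).

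Among 11 tested intermediate filament genes of other classes, 2 were higher (SYNM and GFAP) and 4 lower (VIM, NES, DES and LMNA), with a median of -0.16, and the number higher was 1 without hESC replicate 3. Scaling to GAPDH gave 5 higher and 2 lower, and scaling to HPRT1 gave 1 and 6. VIM, vimentin, the filament of mesenchymal cells, was at 119, 115 and 120 CPM in hESCs against 55.8, 59.8 and 51.8 CPM in NMP-L cells. It fell by 1.08 on the log2 scale (standard error 0.08, edgeR adjusted p = 8.7e-07). Per unit length, the ratio of VIM to summed keratin TPM went from 0.131 ± 0.0126 to 0.0445 ± 0.00108 without overlap between the groups. This ratio was not planned beforehand either.

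Epithelial genes as a list had 7 of 20 higher, 6 lower and a median log2 fold change of 0.01 (14 higher and 1 lower relative to GAPDH counts, 4 and 8 relative to HPRT1 counts). EPCAM, the CLDN7 partner, rose from 272 ± 22.6 to 469 ± 46.2 CPM (log2 fold change 0.79, edgeR adjusted p = 2.2e-05) and CDH1, E-cadherin, from 652 ± 39.2 to 787 ± 26.8 CPM (log2 fold change 0.27, adjusted p = 0.0071). The largest rises that met the naming rule were RAB25, a GTPase of epithelial recycling (20.5 to 45.5 CPM, log2 fold change 1.15), and ST14, the protease matriptase (49.5 to 100.05 CPM, log2 fold change 1.01).

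**Figure D4:**
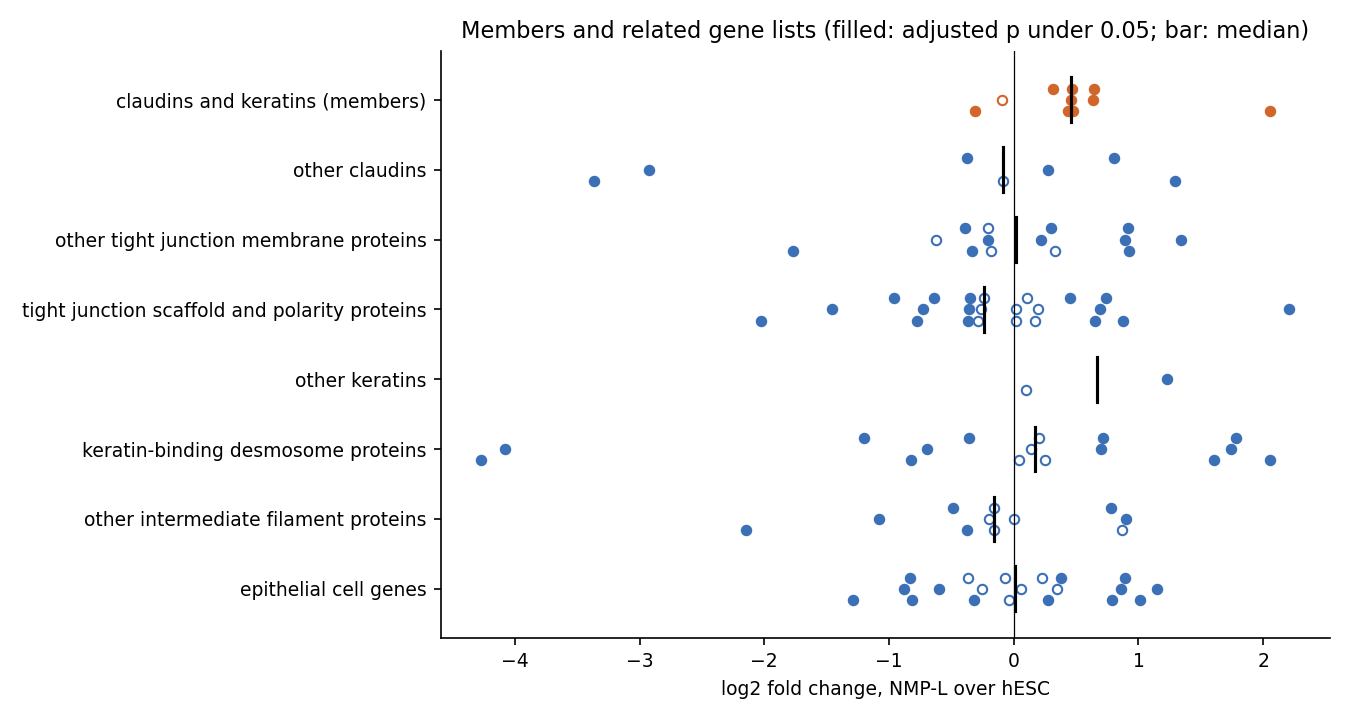
Log2 fold change (NMP-L over hESC) of each tested gene, by list. Filled points passed an adjusted p of 0.05 and black bars are medians, with the 10 claudins and keratins (orange) at 0.46 and the other lists between -0.24 (scaffold and polarity proteins) and 0.66 (other keratins, 2 genes).

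Claudins and keratins are also expressed by other cell types that such a culture could hold, so markers of those types were read in the same libraries. Summed levels of 8 definitive endoderm markers went from 5.25 to 6.14 CPM in hESCs to 20.5 to 32.7 CPM in NMP-L cells. FOXA2, which is also a gene of the node and notochord, accounted for most of this (0.121 to 18.7 CPM). HHEX was higher too, without overlap, at a mean of 6.36 CPM in NMP-L cells (log2 fold change 0.78, edgeR adjusted p = 9.2e-04). CXCR4, the only other endoderm marker tested, did not pass (log2 fold change 0.48, edgeR adjusted p = 0.17), and SOX17 and CER1 never exceeded 3 counts. Summed levels of 12 trophoblast or amnion markers went from 16.1 to 17.7 CPM in hESCs to 31.0 to 42.5 CPM in NMP-L cells, with CDX2, which is also a marker of neuromesodermal progenitors, adding most of the difference (0.0171 to 21.5 CPM), KRT7 higher, GABRP lower (11.02 to 4.36 CPM) and TFAP2B, HAND1, CGA, CGB5, VTCN1 and ELF5 never above 3 counts. Of 8 surface ectoderm markers, summing to 3.91 to 6.27 CPM in hESCs and 7.31 to 9.97 CPM in NMP-L cells, GRHL3 was higher and KRT5 and KRT14 were at the floor. Of 8 mesenchyme markers, TWIST1 (0.157 to 1.25 CPM) and SNAI2 (0.123 to 0.645 CPM) were higher at low level, and COL1A1 (993 to 81.5 CPM) and COL1A2 (233 to 97.0 CPM) were lower. The part of cell types other than NMP-L cells in the claudin and keratin values was not tested.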

How the data were processed

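RNA-seq libraries of polyadenylated RNA of 3 hESC and 3 NMP-L (D3) samples were analysed from the table deposited by the authors. It holds RSEM expected counts per gene, not normalised between libraries, and TPM values scaled by the authors to transcript length. The submitters' processing notes name cutadapt 1.9.1, STAR 2.5.2a, RSEM 1.3.0, DESeq2 1.12.3 and hg19, and the annotation is not given in the sources used here. Every per-sample column was used.

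Expected counts were rounded and tested in R 4.3.3 with edgeR 4.0.16 (TMM, filterByExpr with a minimum count of 10, glmQLFit and glmQLFTest, Benjamini-Hochberg adjustment over 15517 genes). The standard error is the log2 fold change divided by the square root of F. For exact permutation tests of single genes, 0.1 was added to CPM as a pseudocount before taking log2. Shares, sums and ratios of TPM were permuted without a pseudocount. With 3 libraries a group the number of libraries limits the precision, and p-values measure only the spread between them, since nothing beyond the label biological replicate says that they came from separate cultures. Alternatives were RLE, upper-quartile and library-size scaling, counts relative to GAPDH or HPRT1, DESeq2 1.42.0, limma 3.58.1 on log2 TPM (pseudocounts of 1 and 0.1), 2 other filters, a GC and length correction (lowess span 0.3), replicate number as a block, and each library left out. The scripts were tested on simulated data.

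The genes and lists were chosen with earlier results of these data known. Beside the 10 genes, the text names list genes with at least a 2-fold change and 10 CPM, partners set by name (OCLN, TJP1, TJP3, DSP, JUP, PKP2, DSG2, VIM, CDH1, EPCAM and CLDN9, with single values of some list genes not reported here) and markers above 1 CPM. Genes named to complete a count of 5 or fewer (CLDN23, CLDND1, CLDN11, CLDN5, CLDN19, MARVELD3, F11R, CRB3, KRT10, SYNM, GFAP, NES, DES, LMNA and SNAI2), and markers and keratins named as being at or near the floor, are not covered by it and were picked once their values had been seen. Positions are from GENCODE release 44 on GRCh37.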

Additional observations from a re-analysis of the deposited data

How the results depend on the processing

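Of 190 settings of the 10 genes, 171 kept direction and side of the threshold, and CLDN4 kept its call in all 19 of its own (log2 fold change 1.75 to 2.61). Relative to HPRT1 counts 1 of the 10 genes was higher in place of 8. Relative to GAPDH counts 0 were lower in place of 1, 6 rose by at least 2-fold in place of 1, and the signs of CLDN6 (0.24) and CLDN10 (0.47) reversed. The median log2 fold change of all genes tested also moved, to 0.59 relative to GAPDH counts and -0.27 relative to HPRT1 counts. CLDN10 was also reversed by limma on TPM (0.0043 with a pseudocount of 1 and 0.0045 with 0.1). After the GC and length correction 2 were lower, with or without the replicate block. Leaving out a library gave 6 to 8 genes higher, 1 lower and 1 at least 2-fold higher. Over the union of the lists (30 higher, 32 lower), GAPDH gave 54 higher and 12 lower, HPRT1 gave 16 higher, and leaving out a library gave 26 to 32 higher and 28 to 33 lower. The causes were not tested.

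Deviations of same-numbered libraries from their group means correlated at -0.34, -0.06 and -0.13 across genes, so no shared deviation was seen. These values cannot decide whether same-numbered libraries came from the same experiment, and the sources used here do not state it. With the replicate block, 8 genes were higher and 1 lower, and CLDN4 had a log2 fold change of 2.05. Of 77 settings of the shares and ratios, 71 stayed within the spread between replicates, 5 moved with CPM in place of TPM, and the difference in the KRT19 share ran from -0.65 to 0.51 percentage points over the libraries left out, reversing without NMP-L replicate 2. Depth limits the genes near 3 counts, and the labels give no sequencing batch.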
